A study of Homo sapiens with 30 samples.

Results

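The metallothioneins MT1E, MT1F, MT1G, MT1H, MT1X and MT2A were followed in breast cancer cells treated with bone morphogenetic protein 7 (BMP7). All probes that the array design names for these 6 genes were taken, which gave 12 of the 41000 non-control probes. Total RNA of 5 established breast cancer cell lines (HCC1954, MDA-MB-231, MDA-MB-361, T-47D and ZR-75-30) was compared on 30 two-colour arrays, with BMP7-treated cells (50 ng/ml) labelled with Cy5 and vehicle-treated cells of the same line and time labelled with Cy3. Each line had 1 array at 0.5, 1, 3, 6, 12 and 24 h, and each sample was a pool of 3 cultures. Per the study's methods, MDA-MB-231 was grown in medium with 1% fetal bovine serum and T-47D in medium with 5%, whereas the other lines had the recommended medium. No dyes were swapped, so an effect of the dye on a probe and an effect of BMP7 common to all lines cannot be told apart.

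Metallothioneins are small cysteine-rich proteins that bind zinc, copper and cadmium. They buffer free zinc and take up reactive oxygen species, and their genes form a cluster on chromosome 16 that zinc switches on through the factor MTF1, which binds metal response elements in their promoters. Glucocorticoids and oxidative stress also raise several of them, MT2A among these.

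The promoters are shown because the metal response elements they hold are the feature these genes share. Of the 6 genes, MT1H, MT1X and MT2A had a promoter in the RefSeq table (GRCh38.p14). The 250 bases before the gene start are printed 5′ to 3′, on the plus strand, with capitals for every match to the element cores TGCACNC or TGCGCNC on either strand. They lie at chr16:56608334-56608583 for MT2A, chr16:56669564-56669813 for MT1H and chr16:56682220-56682469 for MT1X.
MT2A: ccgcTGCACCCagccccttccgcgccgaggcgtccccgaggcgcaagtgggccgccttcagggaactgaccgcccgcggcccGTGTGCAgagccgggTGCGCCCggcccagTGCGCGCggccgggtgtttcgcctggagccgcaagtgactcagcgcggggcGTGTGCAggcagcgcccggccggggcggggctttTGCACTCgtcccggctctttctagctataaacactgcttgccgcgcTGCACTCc
MT1H: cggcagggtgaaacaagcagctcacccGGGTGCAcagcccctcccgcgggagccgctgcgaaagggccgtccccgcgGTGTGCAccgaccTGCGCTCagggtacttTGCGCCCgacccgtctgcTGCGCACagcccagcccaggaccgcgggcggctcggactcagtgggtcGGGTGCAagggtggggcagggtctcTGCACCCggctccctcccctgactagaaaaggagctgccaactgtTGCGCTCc
MT1X: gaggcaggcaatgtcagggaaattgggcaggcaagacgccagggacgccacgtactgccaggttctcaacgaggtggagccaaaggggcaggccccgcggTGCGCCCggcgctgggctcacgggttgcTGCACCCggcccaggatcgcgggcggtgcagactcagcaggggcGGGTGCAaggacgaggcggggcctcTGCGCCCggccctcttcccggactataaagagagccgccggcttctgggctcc
The MT2A window held 7 matches, that of MT1H 8 and that of MT1X 4. Among the 35116 promoters of the table, 24.8% held at least 1 match and 0.37% held at least 4. A TATA box (TATAAA) was present in MT2A and MT1X, against 10.7% of all promoters, and was not found in these letters for MT1H. The GC box GGGCGG, found in 42.6% of promoters, occurred in all of them, with 2 matches in MT2A and MT1X and 1 in MT1H. The antioxidant response core TGACNNNGC (10.9% of promoters) had 1 match each in MT2A and MT1X, and the glucocorticoid half-site TGTTCT (12.4%) and the SMAD motif GGCGCC (16.4%) matched in none of them. All motifs were read on both strands, and a match is a run of letters and not a measured binding site.

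The probes lay within 74.7 kb of chromosome 16 (hg18), from 55200782 in MT2A to 55275470 in MT1X. MT1F had 1 probe, MT2A had 3, and the others had 2 each. They cannot all be read as single genes. The brightest probe named MT1H (55228291 to 55228350) was annotated with transcripts of MT1H, MT1L and MT1X, and lay between the probes of MT1E and MT1F. The other MT1H probe (55261957 to 55262342) lay 33666 bases away, between the probes of MT1G and MT1X. It was annotated with MT1H, MT1M and a transcript that was not matched to a gene. Values given for MT1H are those of the brightest probe unless the second is named. Whether the brightest probe reads MT1H itself was not tested. The brightest MT1X probe (55275399 to 55275458) was annotated with MT1A, MT1H and MT1X, and overlapped the second MT1X probe (55275411 to 55275470), which named MT1X alone. The first and second MT2A probes (starting at 55200833 and 55200838) overlapped almost fully, so they read nearly the same stretch. The remaining probes with a RefSeq transcript, of MT1E, MT1F, MT1G and MT2A, named their own gene only, which does not show that they bind no relative. Hence agreement between MT1 probes may in part be one transcript read several times, and how far was not tested.

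Of the 12 probes, 11 were well above background in both channels on all 30 arrays and none was saturated. The second MT1E probe (55218115 to 55218174) was well above background in both channels on only 6 arrays and is set apart below. On all arrays, 53.9% to 68.4% of probes were well above background in both channels. There were 13 slides, and 6 of the arrays formed a second scan batch. ERBB2 had mean vehicle levels of 7.09 in HCC1954, 7.24 in MDA-MB-361 and 6.54 in ZR-75-30, against 3.35 in T-47D and 1.95 in MDA-MB-231, while vimentin (VIM) was highest in MDA-MB-231, at 6.93. Of 9 markers of other cell types, 4 were well above background in the vehicle channel on at least 24 arrays, so these markers were not uniformly absent. PTPRC, the one that marks blood cells in general, had 2 of 30 arrays well above background. As a check of the treatment, 4 of 7 BMP targets rose in the limma fit of 3 to 24 h against 30 min, in which 0.571% of all probes passed a Benjamini-Hochberg adjusted p of 0.05. They were ID2 (1.14 ± 0.17, log2 ± SE), ID1, ID3 and SMAD6.

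Metallothionein levels differed widely between the lines before any effect of BMP7 is considered. MT1E, MT1G, MT1H and MT1X were high in HCC1954 and MDA-MB-231, intermediate in ZR-75-30 and low in MDA-MB-361 and T-47D, with HCC1954 above T-47D by 3.23 ± 0.40, 3.15 ± 0.40, 3.39 ± 0.39 and 3.34 ± 0.40 on the log2 scale (difference ± SE). MT2A had a narrower range, and MT1F was highest in ZR-75-30. Levels are given as log2 of the vehicle signal relative to the 75th percentile of the vehicle channel on that array, from the brightest probe of each gene. They order the lines for 1 probe and do not compare genes. In bulk RNA, fewer cells with a transcript and less of it per cell cannot be told apart.

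MT2A levels ran from 4.88 to 6.91 in HCC1954 (median 6.28), from 5.60 to 7.85 in MDA-MB-231 (6.66), from 5.55 to 5.82 in MDA-MB-361 (5.73), from 3.64 to 5.18 in T-47D (4.84) and from 5.40 to 6.79 in ZR-75-30 (5.83). Every T-47D array was thus below every MDA-MB-361, MDA-MB-231 and ZR-75-30 array. MT1G levels ran from 2.41 to 5.43 in HCC1954 (median 4.77), from 3.87 to 5.45 in MDA-MB-231 (4.10), from 1.95 to 2.22 in MDA-MB-361 (2.15), from -0.16 to 2.55 in T-47D (1.65) and from 2.36 to 4.84 in ZR-75-30 (3.20). For MT1G the MDA-MB-361 values lay inside the range of T-47D and below all of MDA-MB-231 and ZR-75-30.

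MT1X levels ran from 2.55 to 5.63 in HCC1954 (median 4.82), from 3.84 to 5.08 in MDA-MB-231 (4.05), from 1.64 to 2.08 in MDA-MB-361 (1.97), from -0.15 to 2.44 in T-47D (1.42) and from 2.46 to 5.11 in ZR-75-30 (3.36). MT1H levels, by a probe annotated with MT1X as well, ran from 2.78 to 5.69 in HCC1954 (4.98), from 3.96 to 5.33 in MDA-MB-231 (4.28), from 1.87 to 2.35 in MDA-MB-361 (2.21), from 0.00 to 2.48 in T-47D (1.58) and from 2.66 to 5.21 in ZR-75-30 (3.58). These probes gave nearly the same order and spread of arrays. MT1E levels ran from 0.54 to 3.88 in HCC1954 (3.07), from 3.09 to 4.09 in MDA-MB-231 (3.32), from 0.14 to 0.39 in MDA-MB-361 (0.31), from -1.85 to 0.85 in T-47D (-0.29) and from 0.74 to 3.22 in ZR-75-30 (1.54).

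MT1F departed from the other MT1 genes. Its levels ran from -2.42 to -0.23 in HCC1954 (median -1.04), from -2.14 to -0.65 in MDA-MB-231 (-2.01, 5 arrays, since the 6 h spot was marked as an outlier and left out), from -1.43 to -0.89 in MDA-MB-361 (-1.29), from -2.89 to -0.63 in T-47D (-1.47) and from -0.93 to 1.13 in ZR-75-30 (-0.28). MDA-MB-231, among the highest lines for the other MT1 genes, had the lowest MT1F median. Over the arrays (29 for MT1F) the vehicle level of MT1F correlated with the other MT1 probes at r = 0.40 to 0.54, against 0.87 to 1.00 among those probes. After each line's mean was subtracted, MT1F followed them at r = 0.91 to 0.94, so within a line the arrays that were high in the other MT1 genes were also high in MT1F. These values share arrays and probes of related sequence and carry no test.

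**Figure D1:**
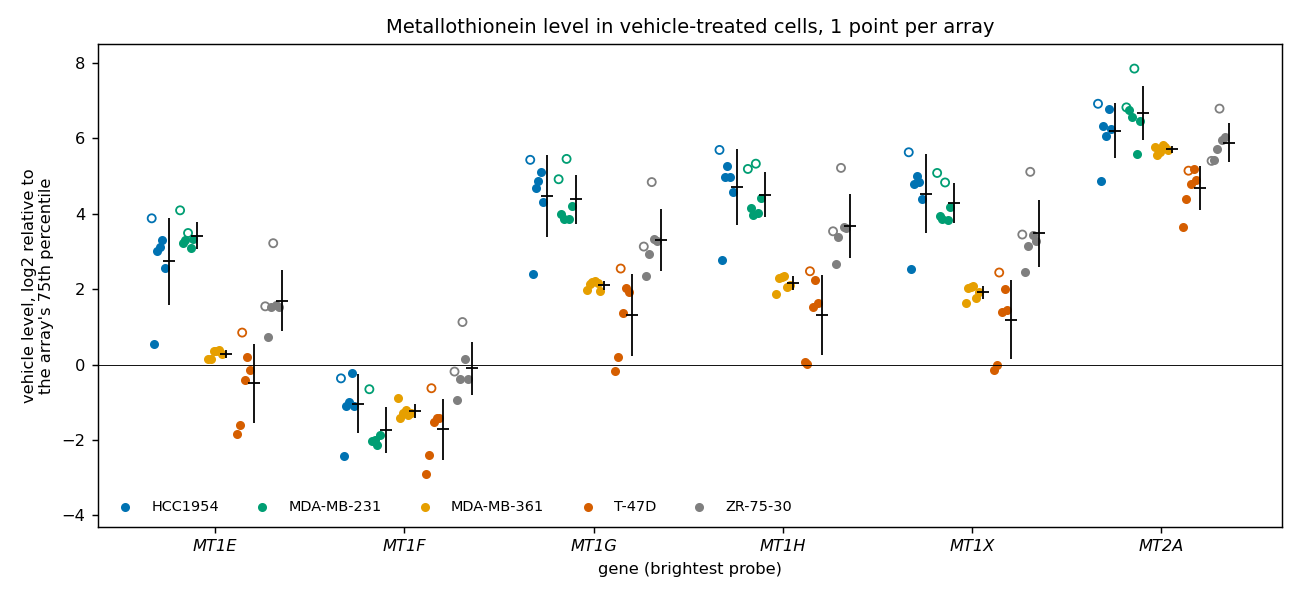
Vehicle level of each metallothionein (y axis, log2 relative to the 75th percentile of the array's vehicle channel) in 5 cell lines, 1 point per array, with the mean and SD in black. Open circles are arrays of the second scan batch, and the T-47D points of MT2A run from 3.64 to 5.18, below all MDA-MB-361 points.

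In the limma F test between lines, 12 of 12 probes passed, but so did 75.6% of all probes, so the count itself sets the metallothioneins little apart. The pairs of neighbouring lines were told apart unevenly. Of the 11 bright probes, 0 differed between HCC1954 and MDA-MB-231 (41.1% of all probes differed, and the adjusted p of the 11 was 0.10 to 0.89 in limma). Between HCC1954 and ZR-75-30, 6 were higher in HCC1954 and MT1F was lower, by 0.93 ± 0.34 (41.5% of all probes differed). With slide as a random block 5 passed there, and MT1E and MT1F did not (limma adjusted p of 0.060 and 0.13). Between MDA-MB-231 and ZR-75-30, 5 differed (44.6% of all probes), with MT1E, MT1G and MT2A higher in MDA-MB-231 and MT1F higher in ZR-75-30 by 1.56 ± 0.36. Between MDA-MB-361 and ZR-75-30, 7 were lower in MDA-MB-361 (41.3% of all probes differed), among them the brightest probe of each MT1 gene. Between MDA-MB-361 and T-47D, the 3 that differed were those of MT2A (45.5% of all probes differed), the brightest of them higher in MDA-MB-361 by 1.04 ± 0.31. With scan batch as a term 9 of the 11 differed. For pairs of lines, no share over all probes is given with slide as a block or scan batch as a term. The counts under those settings therefore do not set the members apart.

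Scan batch moved with these levels. In HCC1954, MDA-MB-231, T-47D and ZR-75-30, the lines with arrays in both batches, all 11 bright probes had a higher mean vehicle level in the second batch than in the first, by a median of 1.17, 1.00, 1.44 and 1.03. The median over all probes differed by -0.01, 0.19, 0.32 and -0.15. Only 1 or 2 arrays of a line were in the second batch, and most were at 30 min or 6 h. With scan batch as a term, or in the first batch alone, all 12 probes still differed between lines. So did 34238 of all 40999 probes and 33043 of 40989, so these counts set the metallothioneins little apart. HCC1954 at 1 h stood apart on the low side, with MT1E at 0.54 against 2.56 to 3.88 on the other HCC1954 arrays.

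After BMP7 treatment the metallothioneins were lower than in vehicle-treated cells in T-47D, and close to vehicle in the other lines. The mean log2 ratio over the 6 T-47D arrays was below 0 for all 11 bright probes, at -0.57 to -0.24, while in each other line the median over those probes was between -0.06 and 0.09. At 6, 12 and 24 h the highest T-47D value lay below the lowest value of all other lines for 10 of the 11, a pattern chosen after the values were seen. The exception was the second MT1H probe, with -0.34 in T-47D against -0.38. Of the 38141 probes with no missing value at these times, dim ones included, 2.06% showed the pattern. MT1F, which lacks a value, is among the 10 but not among the 38141. No share was computed for bright probes alone. Under normexp background correction and median scaling T-47D kept a mean below 0 for all 11, whereas the medians of HCC1954, MDA-MB-231 and MDA-MB-361 became 0.54, 0.54 and 0.36, so the closeness of those lines to vehicle depends on the scaling.

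For MT1X in T-47D, the log2 ratios in order of time (30 min and 1, 3, 6, 12 and 24 h) were -0.07, -0.40, -0.41, -0.71, -0.86 and -0.95. The value was lowest at the latest time. MT1E went from 0.09 at 30 min through -0.26, -0.23, -0.62 and -0.84 to -0.98 at 24 h. MT1G had -0.09, -0.52, -0.27, -0.61, -0.91 and -0.94 at the same times. All of these end just short of a 2-fold decrease. The brightest MT1H probe had -0.02, -0.06, -0.25, -0.38, -0.86 and -0.85, and the second had 0.29, -0.44, -0.29, -0.34, -0.42 and -0.75. Only the first of them was lower at both 12 and 24 h than at every earlier time. MT1F had -0.03, -0.71, -0.42, -0.43, -0.77 and -0.91.

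The brightest MT2A probe in T-47D had -0.11, -0.88, -0.13, -0.32, -0.33 and -0.47 in the same order. It was lowest at 1 h, as was the second MT2A probe, which overlaps it (-0.64 at 1 h). The third MT2A probe had -0.06, -0.55, -0.22, -0.40, -0.67 and -0.79, and was lowest at 24 h like most MT1 probes, so the MT2A probes disagreed on the course. The 5 named genes whose log2 ratio was most like that of MT2A over the 30 arrays, out of 16064 probes well above background in both channels on at least 24 arrays, were MIEN1 (r = 0.84), POLD4 (0.82), TAF10 (0.81), CHCHD5 (0.80) and RRAS2 (0.79). In T-47D at 1 h they had log2 ratios of -0.62, -0.33, -0.72, -0.71 and -0.30, the lowest of the 6 T-47D arrays for each except POLD4, at -0.34 at 24 h. MT1F, at r = 0.81, was as close to MT2A as these, and the other MT1 probes were at 0.32 to 0.66.

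**Figure D2:**
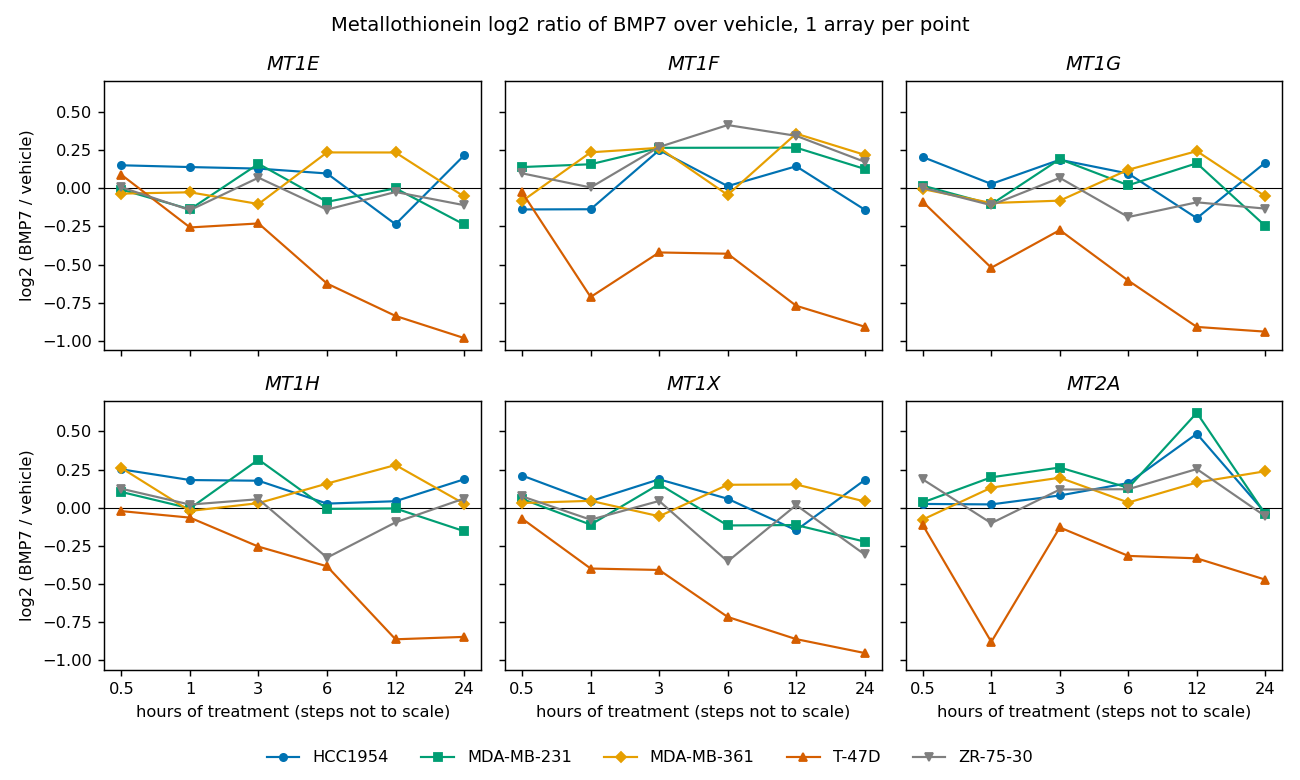
Log2 ratio of BMP7 over vehicle (y axis) by hours of treatment (x axis, steps not to scale) for the brightest probe of each gene, 1 array per point and 1 line per cell line. T-47D lies below the other lines at the late times, at -0.98 for MT1E and -0.47 for MT2A at 24 h, and MT1F lacks its MDA-MB-231 point at 6 h.

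In the other 4 lines the ratios were mostly small, and mixed in sign for most probes. MT2A ran from -0.03 to 0.48 in HCC1954, from -0.04 to 0.62 in MDA-MB-231, from -0.08 to 0.24 in MDA-MB-361 and from -0.10 to 0.25 in ZR-75-30. Its highest values, in HCC1954 and MDA-MB-231, were both at 12 h. The second MT2A probe reached 0.67 in MDA-MB-231 at 12 h. MT1X ran from -0.15 to 0.21 in HCC1954, from -0.22 to 0.15 in MDA-MB-231, from -0.06 to 0.15 in MDA-MB-361 and from -0.35 to 0.07 in ZR-75-30. MT1F was above 0 on all arrays measured in MDA-MB-231 (0.13 to 0.27, 5 arrays) and ZR-75-30 (0.00 to 0.41, 6 arrays). Without T-47D, its log2 ratio ran against those of the other MT1 probes (r = -0.65 to -0.19 over 24 arrays, with 1 missing), which among themselves had r = 0.56 to 0.90. The brightest probes of MT1E, MT1G and MT1H stayed between -0.33 and 0.32 in these lines, while the second MT1G probe ran from -0.41 in ZR-75-30 at 6 h to 0.43 in HCC1954 at 24 h and the second MT1H probe reached -0.38. In HCC1954, the brightest MT1H probe (0.03 to 0.25) and the second MT2A probe (0.10 to 0.30) were above 0 on all 6 arrays.

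The tests gave the following. For a mean log ratio over the 5 lines other than 0, 0 of 12 probes passed in limma, with 0 at an unadjusted p under 0.05, and 0.00976% of all probes passed. The effects of the 11 bright probes were -0.12 to 0.06, with adjusted p of 0.63 to 1.00 in limma. After normexp background correction and median scaling, the 3 MT2A probes did pass, the brightest at 0.53 ± 0.12, as did 3276 of all 41000 probes, 3234 of them upward. For 3 to 24 h against 30 min over all lines, 0 of 12 passed, with 4 at an unadjusted p under 0.05, where 234 and 6869 of all 41000 probes did. Between lines, 10 of 12 probes passed the limma F test, against 15.2% of all probes, with adjusted p of 0.0015 for MT1F, 0.0018 for MT1X, 0.0032 for MT1G, 0.0043 for MT2A, 0.0085 for MT1H and 0.020 for MT1E. The second probes of MT1H and MT1E did not pass (0.089 and 0.078). Under normexp and median scaling 2 of 12 passed, both of MT2A, and of all 40999 probes 31 did, against 6220 before. The arrays of a line at its 6 times served as the replicates here, so the p-values measure the spread between times, slides and pools together.

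The difference between lines rested on T-47D. Without T-47D, 0 of 12 probes passed the limma F test and 1 had an unadjusted p under 0.05. Over all 40999 probes, 3806 passed and 11548 had such an unadjusted p. Without HCC1954 or without MDA-MB-361, 6 of 12 passed, and 2156 and 1045 probes overall. A direct contrast of T-47D with the mean of the other lines, chosen after the values were seen, was lower in T-47D for all 11 bright probes, against 5.47% of all probes. With only values well above background in both channels, the 11 again passed as lower, as did 2334 of 26283 probes. The members that passed as lower numbered 9 after normexp and loess, where 2098 of all 41000 probes were lower. They numbered 6 after normexp and median scaling, under which 128 of all probes were lower. The differences were -0.69 ± 0.09 (log2 ± SE) for MT1F, -0.57 ± 0.08 for MT1X, -0.56 ± 0.08 for MT1G, -0.50 ± 0.08 for MT2A, -0.48 ± 0.10 for MT1E and -0.48 ± 0.09 for MT1H, with adjusted p between 0.00038 and 0.0051 in limma. The second MT1H probe had a smaller difference, -0.32 ± 0.09 (limma adjusted p of 0.028). The dim MT1E probe was higher in T-47D, by 0.48 ± 0.14, but it was well above background on only 6 of the 30 arrays.

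**Figure D3:**
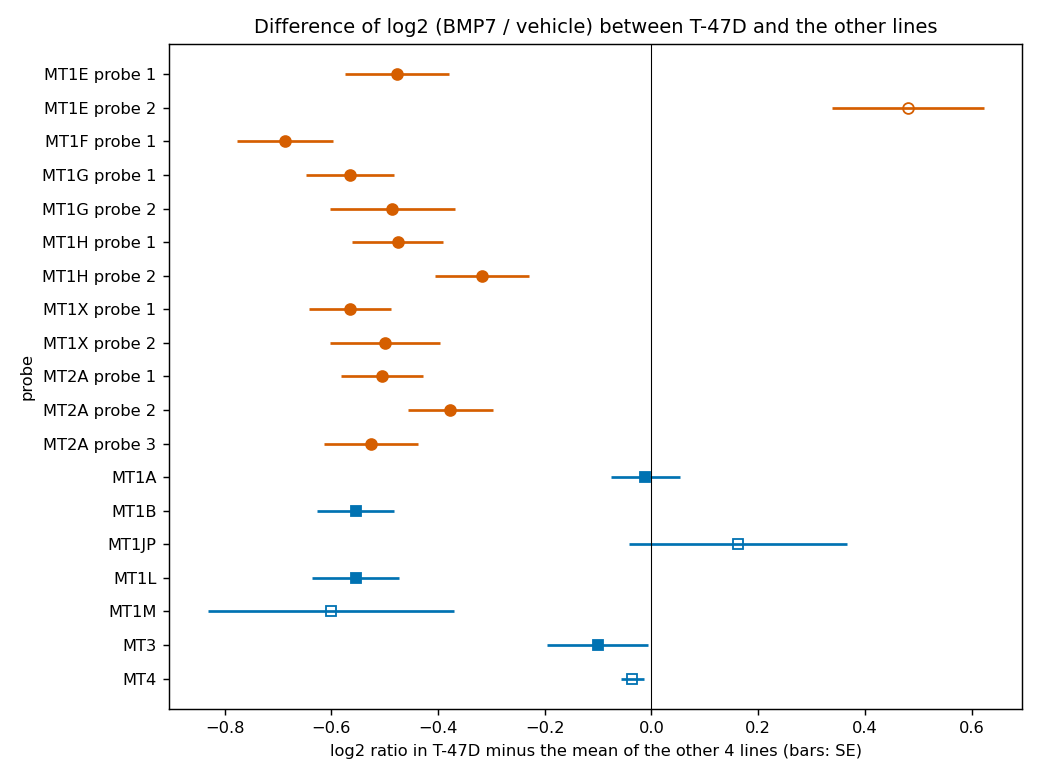
Log2 ratio of BMP7 over vehicle in T-47D minus the mean of the other 4 lines (x axis, bars are SE) for the 12 member probes (orange circles, probe 1 being the brightest of its gene) and for other metallothioneins (blue squares). Filled marks were well above background in both channels on all 30 arrays. Every filled orange mark lies between -0.69 and -0.32, MT1B and MT1L lie with them, and MT1A is at -0.01.

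Whether the ratio in T-47D changed with time more than in the other lines was less clear. The interaction of line with late time, also added after the values were seen, passed for 0 of 12 probes and for 0.317% of all probes. An unadjusted p under 0.05 in limma was reached by 7 of the 12 and by 1702 of all 40986 probes. The estimates for the 11 bright probes were all negative, from -0.80 to -0.08. The T-47D arrays at 30 min and 1 h shared a slide, those at 6, 12 and 24 h shared another, and the 3 h array was of the second scan batch. In T-47D, time and slide therefore cannot be told apart.

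The channels of the T-47D arrays show the levels behind these ratios. For MT1X, the vehicle levels in order of time were -0.15, 0.00, 2.44, 1.39, 1.99 and 1.45. The BMP7 levels, relative to the 75th percentile of their own channel, were -0.23, -0.38, 2.04, 0.68, 1.13 and 0.48. Both channels were thus higher on the later arrays, and the BMP7 channel was higher by less. MT1G had the same course, with -0.16 at 30 min and 1.91 at 24 h in vehicle and -0.25 and 0.95 with BMP7. Over all lines, the vehicle level at 12 and 24 h was not separated from that at 30 min and 1 h, with 0 of 12 probes passing in limma, 0 at an unadjusted p under 0.05 and 0.0122% of all probes passing. The estimates of the 11 bright probes were 0.31 to 0.58, each with an SE of 0.25 to 0.39. With scan batch as a term, 9 of the 12 had an unadjusted p under 0.05 in limma, as did 2913 of all 41000 probes. Still 0 of the 12 passed.

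**Figure D4:**
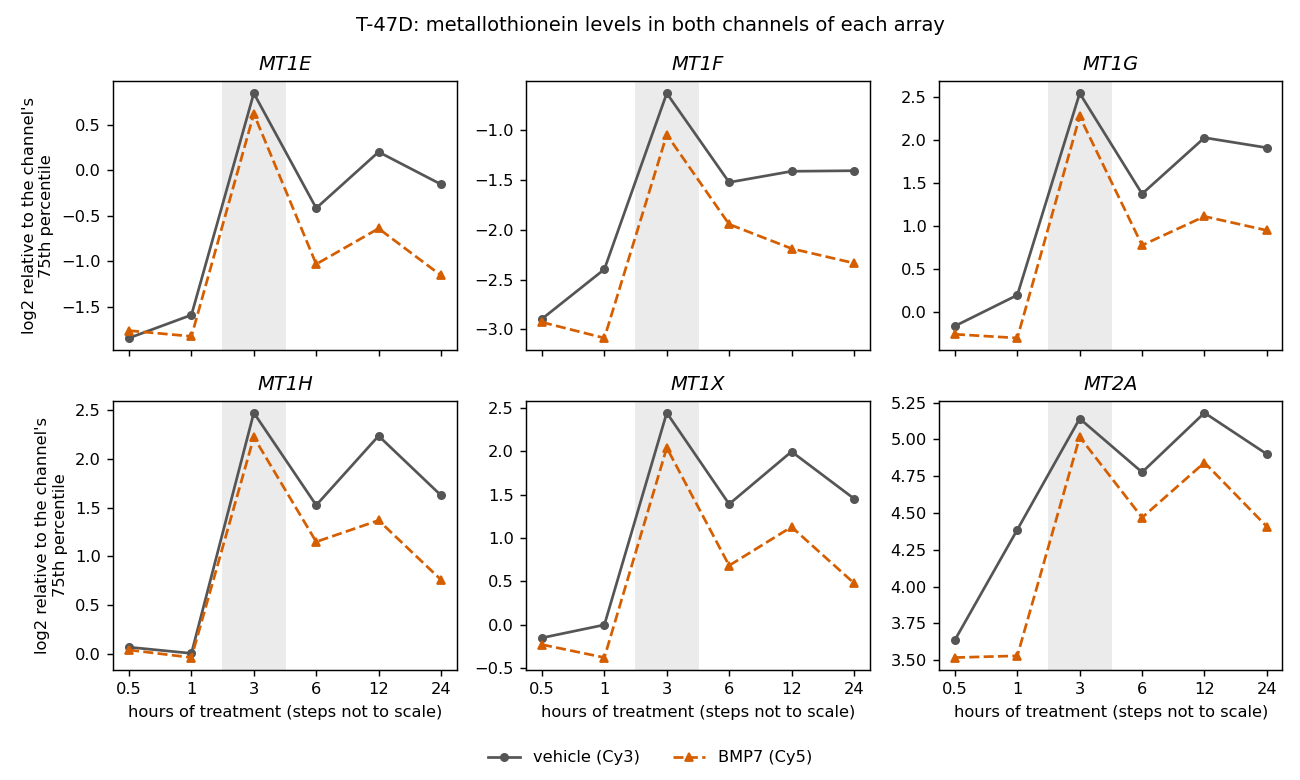
Levels of each metallothionein in T-47D (y axis, log2 relative to the 75th percentile of the channel, scales differ between panels) by hours of treatment (x axis, steps not to scale), with vehicle as solid and BMP7 as dashed lines, 1 array per time. The shaded 3 h array is of the second scan batch. At 24 h MT1X is at 1.45 in vehicle and 0.48 with BMP7.

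Few member values reached a 2-fold change. There were 2 of them, both in T-47D: the second MT1G probe at 12 h (-1.23) and the dim MT1E probe at 24 h (1.19), the latter not well above background. Of all values on all arrays, 1.87% reached 2-fold. With the series matrix values the members had 8, of which 7 were decreases in T-47D. After normexp and median scaling they had 31, of which 11 were increases in HCC1954, 16 increases in MDA-MB-231 and 4 decreases in T-47D. The share of 1.87% is of the main values. No share over all probes is given for these alternatives, so their counts do not set the members apart.

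Other metallothioneins behaved partly like the members. Of 13 names listed, 7 had a probe, and 4 of these were well above background in the vehicle channel on at least 24 arrays. MT1B and MT1L were lower in T-47D than in the other lines, by -0.55 ± 0.07 and -0.55 ± 0.08 (limma adjusted p of 0.00038 and 0.00058), where 9.63% of all probes differed in either direction. MT1L is a pseudogene that the files also annotate on an MT1H probe. MT1A, with -0.01 ± 0.07, and MT3, the form best known from brain, with -0.10 ± 0.09, did not pass. MT1M, well above background on all arrays of MDA-MB-231 and ZR-75-30 and on none of HCC1954 and MDA-MB-361, had -0.60 ± 0.23 (limma adjusted p of 0.11).

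Among 25 genes of zinc sensing and transport, 3 passed that contrast, all of them higher in T-47D. Of all 41000 probes, 1706 were higher, and 9.63% passed in either direction. The list was not tested as a set, so the count does not decide whether it stands apart. The 3 genes were SLC30A1, the plasma membrane zinc exporter and a known MTF1 target (0.30 ± 0.05), SLC39A11, a zinc importer (0.27 ± 0.07), and SLC30A3, which loads zinc into vesicles (0.21 ± 0.06). MTF1 itself had -0.28 ± 0.12 and did not pass. The median over the list was 0.02, against 0.00 over all probes. SLC30A1 therefore stood on the opposite side of 0 from the metallothioneins in T-47D, with a mean log2 ratio of 0.19 there.

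Of 7 copper genes measured, 3 were lower in T-47D, namely COX17, a copper chaperone of mitochondria (-0.33 ± 0.10), SLC31A1, the main copper importer (-0.29 ± 0.07), and CCS, the chaperone of superoxide dismutase (-0.25 ± 0.07), with a list median of -0.15, where 5.47% of all probes were lower. Of 13 genes of the oxidative stress response, 0 passed in limma, with a median of -0.09. Of 9 glucocorticoid receptor genes measured, NR3C1, the receptor itself, was higher in T-47D by 0.33 ± 0.10, and the median was 0.15. PER1, a clock gene of that list, rose at 3 to 24 h against 30 min over all lines, by 0.25 ± 0.05, in a fit where 0.571% of all probes passed. Of 7 BMP targets, ID3 was lower in T-47D, by -0.64 ± 0.15, with a median of -0.26. For the glucocorticoid and BMP lists, 1 gene passing the T-47D contrast is a share near the 9.63% of all probes that passed it in either direction. The 6 members, by their brightest probes, had a median of -0.53.

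For vehicle levels, the named genes most like MT2A over the 30 arrays were ZNF526 (r = 0.90), UBE2S (0.87), TMSB10 (0.85), PIGL (0.84) and CDCA3 (0.84), out of 16329 probes. The MT1 probes other than MT1F were at 0.67 to 0.90 and MT1F at 0.52. Points of one line cluster in these values, and the correlations describe these arrays only.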

How the data were processed

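RNA of 5 breast cancer cell lines was hybridised to 30 two-colour Agilent 44K arrays. Feature extraction output was deposited as log10 ratios (Cy5 over Cy3) and intensities of both channels, per the file headers from Feature Extraction 9.5.1.1, after background correction and dye normalization, on hg18 annotation. A series matrix with log2 ratios made by the authors was used as an alternative. Control and outlier-marked spots were left out, ratios were changed to log2 and shifted to an array median of 0 (each already had it), and vehicle levels were log2 signals minus the array's 75th percentile. Groups were the cell lines in the labels. Tests used limma 3.58.1 in R 4.3.3 over all probes, with Benjamini-Hochberg adjustment at 0.05: the mean of 5 lines, late against early with line as block, and F tests between lines. On simulated arrays with 200 probes changed by 1.5 on the log2 scale, 200, 198 and 194 were recovered in the 3 log ratio fits. In the vehicle fits between lines and over time, 142 and 179 were recovered. Smaller changes, such as those of the bright member probes in the log ratio fits, were not simulated. Recovery at that size is thus not known. Genes were read from the probe with the highest median vehicle signal, others by range, list genes past the threshold being named, at most 5 a list. Python 3.11.15 with numpy 2.4.6, pandas 2.3.3 and matplotlib 3.10.9 did the rest. Alternatives covered background correction, scaling, background and outlier filters, blocks, scan batch and leaving out lines. The members and lists were chosen with earlier results of these data known. Arrays give no counts, so no counting interval was computed, and their number limits the precision.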

Additional observations from a re-analysis of the deposited data

Results flagged for a closer look

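Among 60 groups of arrays (6 genes by their brightest probes, 5 lines, log2 ratio and vehicle level), 5 held a value far from the rest, where chance gives about 1 in 20. The MT1E log2 ratio in HCC1954 was -0.24 at 12 h and 0.10 to 0.21 on the other arrays. Vehicle levels stood apart for MT1E in ZR-75-30 at 6 h (3.22, others 0.74 to 1.59), MT1X in ZR-75-30 at 6 h (5.11, others 2.46 to 3.45), MT1F in MDA-MB-231 at 30 min (-0.65, others -2.14 to -1.86) and MT1G in HCC1954 at 1 h (2.41, others 4.31 to 5.43). The ZR-75-30 and MDA-MB-231 arrays were of the second scan batch, and its part in these values was not tested.

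The log2 ratio differed between lines in the limma F test for the brightest probe of each gene. T-47D minus the mean of the other lines was -0.48 for MT1E, -0.69 for MT1F, -0.56 for MT1G, -0.48 for MT1H, -0.57 for MT1X and -0.50 for MT2A.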

How the results depend on the processing

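The number of member probes that passed between lines for the log ratio was 10, and 2 after normexp and median scaling, both of MT2A. Leaving out each line gave 0 to 10, with 0 without T-47D and 6 without HCC1954 or MDA-MB-361. In the first scan batch alone, a setting added after seeing the data, it was 8. There 4062 of all 40978 probes passed, against 6220 of 40999 in the main fit. For the mean over 5 lines, 3 passed after normexp and median scaling, all MT2A probes and upward, and 0 in the other settings. Changes of 2-fold numbered 2, against 31 after normexp and median scaling (11 increases in HCC1954, 16 in MDA-MB-231 and 4 decreases in T-47D), 8 with the series matrix values, 1 when both channels had to be well above background, 1 after loess on normexp values and 0 at 3-fold. For these alternatives no share over all probes is given. The counts for late against early and for vehicle level over time were 0 in each setting run, and that for vehicle level between lines was 11 or 12. The contrast of T-47D with the other lines kept its sign for the brightest probes in 13 alternatives, missing the threshold after normexp and median scaling for MT1E (-0.53) and MT1H (-0.81). The interaction with time reversed there, to 0.0038 for MT1F, 0.047 for MT1G, 0.18 for MT1H and 0.085 for MT1X, and MT1F passed with scan batch as a term (-0.98). MDA-MB-361 minus ZR-75-30 for MT2A reversed to 0.11 with scan batch as a term, under which 8 other comparisons of a gene between a pair of lines newly passed and 1 no longer did. With slide as a block MT1E and MT1F between HCC1954 and ZR-75-30 and MT1G between MDA-MB-361 and ZR-75-30 no longer passed. For these comparisons of pairs no share over all probes is given. The causes were not tested. The labels give no replicate numbers to pair samples by. Late against early taken as 1 difference per cell line gave 0 member probes. The limits are 1 array per line and time, no dye swap, slides mostly of 1 line, and related sequences among the probes, for which no probe sequence was used here.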
